A study of Mus musculus with 24 samples.

Results

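Lungs of ovalbumin-treated mice that had breathed diesel exhaust at 2000 ug/m3 (DE2000_OVA) were compared with lungs of ovalbumin-treated mice that had breathed filtered air (air_OVA). The arrays were taken by their titles, 4 of DE2000_OVA and 4 of air_OVA, which makes 8 of the 24 in the series. The series crossed exhaust with ovalbumin, an egg white protein used as a test allergen. Exposure to exhaust or filtered air lasted 4 hours a day on 5 days, and 100 ug of ovalbumin was given on 3 days to DE2000_OVA and air_OVA mice alike. Beside these groups stood DE500_OVA (500 ug/m3 exhaust with ovalbumin) and the 3 groups given saline in place of ovalbumin, of which DE2000_saline (2000 ug/m3) and air_saline (filtered air) are compared below. The remaining group, DE500_saline (500 ug/m3), enters only the signal filter and the estimate of spread that all groups share. Each group had 4 arrays of RNA from frozen lung. The labels used here give no strain, sex or age and do not say whether the 4 arrays of a group came from separate animals, so p-values measure the spread between these samples, which may be technical.

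Diesel exhaust carries soot, aldehydes and polycyclic hydrocarbons. Such hydrocarbons bind the aryl hydrocarbon receptor, which switches on cytochrome P450 genes, while oxidants and aldehydes release the factor NRF2, which switches on genes of glutathione and thioredoxin. The airway lining answers inhaled matter with secreted defence proteins, with transport of immunoglobulin A into the airway by the polymeric immunoglobulin receptor, and with signals that draw neutrophils, and an inhaled allergen can add a type 2 response with resistin-like and chitinase-like proteins.

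Lung identity was checked on 3 markers. Sftpc, surfactant protein C of alveolar type 2 cells, had signals of 21129 to 38186 on the 8 arrays, Scgb1a1, the secretoglobin of club cells, 18241 to 27744, and Ager, a receptor of alveolar type 1 cells, 9452 to 12648. DE2000_OVA replicate 4 stood apart. Its log2 ratio of 3' to 5' control probe sets, averaged over Gapdh and actin, was 2.02, against 0.05, -0.13 and 0.09 on the other 3 DE2000_OVA arrays and -0.03 to 0.20 on the 4 air_OVA arrays. The difference of means was 0.43 with it (exact permutation test, two-sided, p = 0.8) and -0.07 without it (exact permutation test, p = 0.457). Replicate 4 was set apart by this same ratio, so neither p-value can show that the groups were alike in it. B1, a repeat carried in many unspliced transcripts, has a control probe set whose log2 signals were 11.06, 10.98, 10.85 and 12.43 in DE2000_OVA lungs, against 11.93, 11.74, 11.76 and 11.31 in air_OVA lungs. Without replicate 4 the B1 signal of every DE2000_OVA array lay below that of every air_OVA array (difference -0.72, exact permutation test, p = 0.0571, the smallest that 3 against 4 arrays can give). The part of either measure in the differences below was not tested. Of 110 named genes, 109 had a difference of the same sign without replicate 4, and 100 moved by less than 0.2 on the log2 scale. The other 10, and further genes where it matters, are given both ways. Most of the 110 were named for a small p with replicate 4 included, so agreement in sign was favoured in advance. Several list medians below changed sign without it. Pairs of arrays among the 8 correlated between 0.869 and 0.972 across probe sets on the log2 scale. In pieces of whole lung, fewer cells of a type and less RNA per cell cannot be told apart.

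The exhaust-exposed lungs had more RNA of Pigr, the receptor that carries immunoglobulin A across epithelium, of Cd177, a surface glycoprotein of neutrophils, and of Polr2j, a small subunit of RNA polymerase II, at 2.95, 3.73 and 1.59 times the air_OVA level. These were the 3 probe sets of 13575 tested that passed an adjusted p of 0.05 in limma (0.0221%), one for each of 3 genes of 8315 (0.0361%), and no probe set passed in the other direction. At an unadjusted p under 0.05, 499 probe sets (3.68%) had higher and 604 (4.45%) had lower values in DE2000_OVA lungs, a split that was 529 and 459 after quantile normalization and 850 and 264 after median scaling. Without DE2000_OVA replicate 4 the called probe sets were 2 (0.0147%), both of Pigr. With the B1 signal as a covariate 974 probe sets were called, 388 higher and 586 lower, and the fit with the 3'/5' ratio as covariate called 4, all higher.

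The signal of Pigr was 1419, 1358, 1599.8 and 2702 in DE2000_OVA lungs, against 540.1, 538, 499.8 and 758 in air_OVA lungs. The groups did not overlap, and replicate 4 was the highest array of all 8. The rise was 2.95-fold, a log2 difference of 1.56 ± 0.22 (adjusted p = 0.00385, limma), and it was 1.34 without replicate 4 (adjusted p = 0.0165). Errors here and below are SE from the limma fit, for 4 arrays a group. They rest on the estimate of spread that all groups share, not on the spread of the compared arrays alone. A second Pigr probe set read 1260.5, 1641, 1253 and 637 in DE2000_OVA lungs, against 624, 615, 578 and 544 in air_OVA lungs. There replicate 4 was the lowest of the exhaust-exposed arrays and lay close to the air_OVA arrays, whereas the other 3 read 1253 or more. Its difference was 0.94 with replicate 4 (adjusted p = 0.422) and 1.22 without it (adjusted p = 0.027). The array with the uneven control ratio thus had the highest DE2000_OVA value in one Pigr probe set and the lowest in the other.

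The sequence ahead of the start of Pigr is shown because this is the gene called with and without replicate 4. It is the RefSeq window of 250 bases before to 50 after the gene's start in GRCm38.p6, written 5′ to 3′ on the gene's strand. Capitals mark the E-box CACGTG, bound by USF factors and by the clock proteins, which reads the same on both strands.
Pigr (chr1:130826434-130826733, plus strand): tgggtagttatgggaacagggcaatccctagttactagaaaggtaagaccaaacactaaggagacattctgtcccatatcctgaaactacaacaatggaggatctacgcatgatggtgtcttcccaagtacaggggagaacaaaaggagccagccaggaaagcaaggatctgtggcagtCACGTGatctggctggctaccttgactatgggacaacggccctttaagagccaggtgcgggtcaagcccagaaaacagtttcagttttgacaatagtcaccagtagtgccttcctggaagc
The E-box begins at base 180 of these 300 bases. Of 32851 such windows of 27025 genes, 2349 (7.15%) held CACGTG. Of the other motifs searched, only GAS (TTCNNNGAA, N any base) was also found in the Pigr window, in 1 place, and it is not marked. GAS was held by 2726 windows (8.298%). The matches are a description of the letters only.

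Cd177 read 465, 217, 391 and 716 in DE2000_OVA lungs, against 146, 88.4, 89.1 and 127 in air_OVA lungs. No DE2000_OVA array overlapped the air_OVA arrays, and again replicate 4 was the highest. The rise was 3.73-fold (1.90 ± 0.30, adjusted p = 0.0134, limma), and without replicate 4 the difference was 1.63 (adjusted p = 0.0632) and did not pass. The signal of Polr2j was 976, 1047, 988 and 1105 in DE2000_OVA lungs, against 610.4, 650.2, 588 and 751 in air_OVA lungs. The 4 DE2000_OVA values lay within a narrow span above all air_OVA values. It rose 1.59-fold (0.67 ± 0.12, adjusted p = 0.0467, limma), and without replicate 4 the difference was 0.63 (adjusted p = 0.171). Fitted on the 8 arrays alone, without the other groups' share in the estimate of spread, none of the 3 genes passed, with Pigr at adjusted p = 0.334 and Cd177 and Polr2j at 0.705 (limma).

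**Figure D1:**
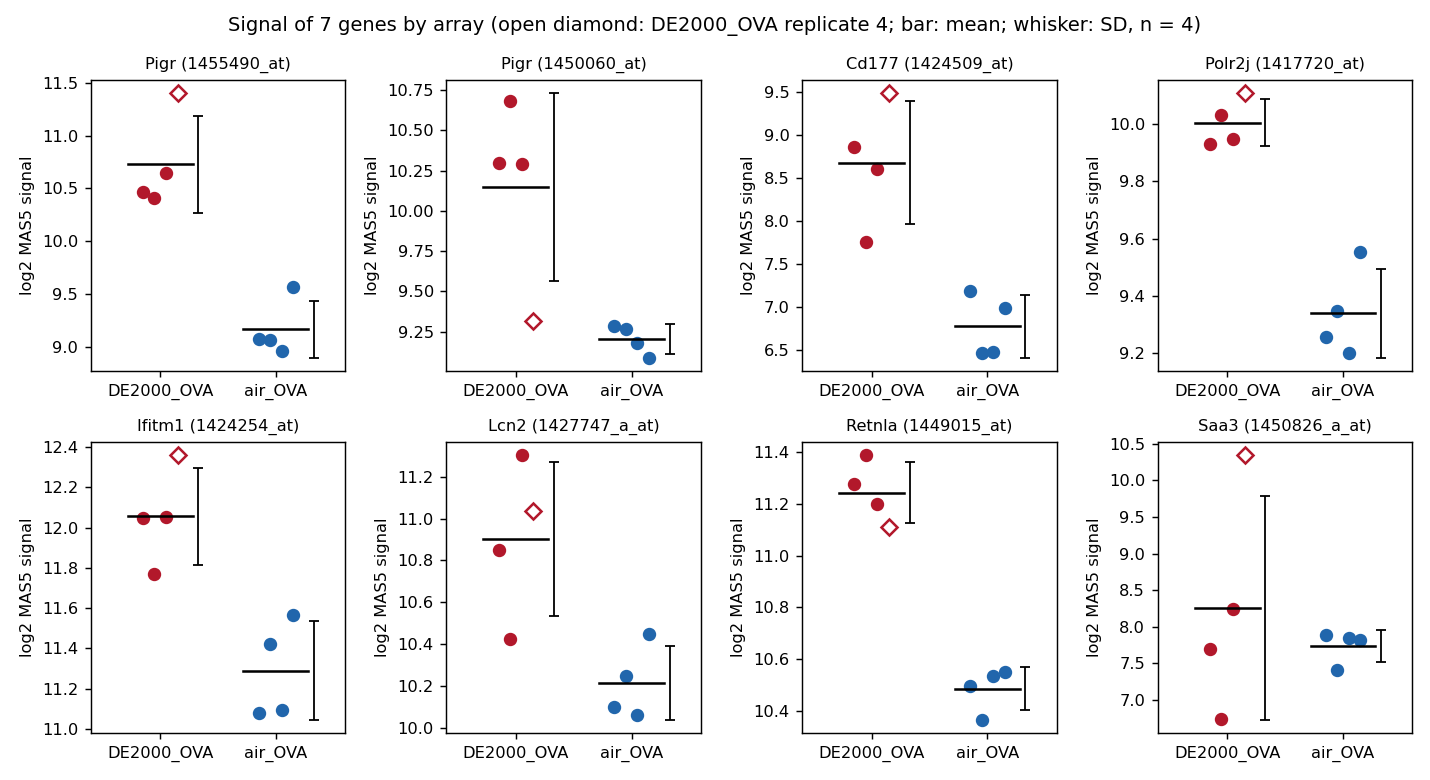
Log2 MAS5 signal (vertical axis) of 7 genes on each DE2000_OVA (left, red) and air_OVA (right, blue) array, with Pigr shown for both of its probe sets. Black bars are group means, whiskers are SD (n = 4), and open diamonds are DE2000_OVA replicate 4. In the first Pigr probe set, Cd177, Polr2j, Ifitm1 and Retnla every DE2000_OVA point lies above every air_OVA point, and in Saa3 replicate 4 alone stands far above the rest.

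Of the 8315 genes, 202 (2.43%) had all 4 DE2000_OVA values above all 4 air_OVA values. Of these, 10 with the smallest p were named by rule, and the 7 besides the called genes did not pass the threshold. Ifitm1, an interferon-induced membrane protein that hinders virus entry, read 4236, 3493, 4243 and 5259 in DE2000_OVA lungs, against 2159.6, 2744, 2183 and 3035 in air_OVA lungs (log2 difference 0.77 ± 0.16, adjusted p = 0.175, limma, and 0.67 without replicate 4). Lamtor1, which anchors the Ragulator complex to the lysosome, read 3004, 3351, 4152 and 5487 in DE2000_OVA lungs, against 2153, 2593, 2038 and 2059.9 in air_OVA lungs (0.82 ± 0.19, and 0.66 without replicate 4). In Lamtor1 the 4 DE2000_OVA arrays spread widely, with replicate 4 the highest, and 2 further Lamtor1 probe sets with overlapping groups gave 0.45 and 0.30 (0.29 and 0.12 without replicate 4). Ppp1r3c, which brings a phosphatase to glycogen, gave 0.69 ± 0.16, with signals of 593 to 646 in DE2000_OVA lungs, against 314 to 452 in air_OVA lungs. Prom1, a protein of membrane protrusions on stem and epithelial cells, gave 0.71 ± 0.18. Plin2, which coats lipid droplets, gave 0.56 ± 0.15, with signals of 5137 to 6892 in DE2000_OVA lungs, against 3400.4 to 4279.5 in air_OVA lungs. The ubiquitin ligase subunit Fbxl6 and the lysosomal thioesterase Ppt2 gave 0.71 ± 0.19 and 0.51 ± 0.14. Groups chosen as apart cannot overlap when an array is left out. Without replicate 4 the differences of the 10 genes lay between 0.46 (Ppt2) and 1.63 (Cd177).

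In the other direction 171 genes (2.06%) had all 4 DE2000_OVA values below all 4 air_OVA values, and none was called. Evpl, envoplakin of epithelial junctions, read 122, 180.1, 171 and 142 in DE2000_OVA lungs, against 309, 259.6, 274 and 239 in air_OVA lungs (log2 difference -0.83 ± 0.19, adjusted p = 0.373, limma). Alg2, a mannosyltransferase of N-glycan synthesis, gave -0.63 ± 0.15, with signals of 420.3 to 683 in DE2000_OVA lungs, against 775 to 1003 in air_OVA lungs. Notch4, a Notch receptor of endothelium, gave -0.63 ± 0.17, while its second probe set gave 0.05, and Crb1, a protein of cell polarity, gave -0.88 ± 0.25. Pclaf, which binds the replication clamp PCNA, read 239, 145, 146 and 218 in DE2000_OVA lungs, against 356, 342, 473 and 269 in air_OVA lungs. The gap for Pclaf was narrow, since replicate 1 of DE2000_OVA and replicate 4 of air_OVA nearly met (-0.95 ± 0.27, and -1.04 without replicate 4). The corepressor Rere and the zinc finger factor Patz1 both gave -0.39, with SE of 0.11, and Agfg1, which has nucleoporin-like repeats, gave -0.46 ± 0.13. The other 4 Agfg1 probe sets had overlapping groups and gave -0.39, -0.09, 0.01 and -0.08. Nr1d2 and Tef, the last of the 10, belong to the circadian clock and are described with it below. By the probe set with the highest signal, which stands for each gene, all 10 had negative differences in every alternative fit run here. Those fits reuse values by which the 10 genes were chosen, so a constant sign was favoured in advance. Leaving out replicate 4 cannot make groups chosen as apart overlap.

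**Figure D2:**
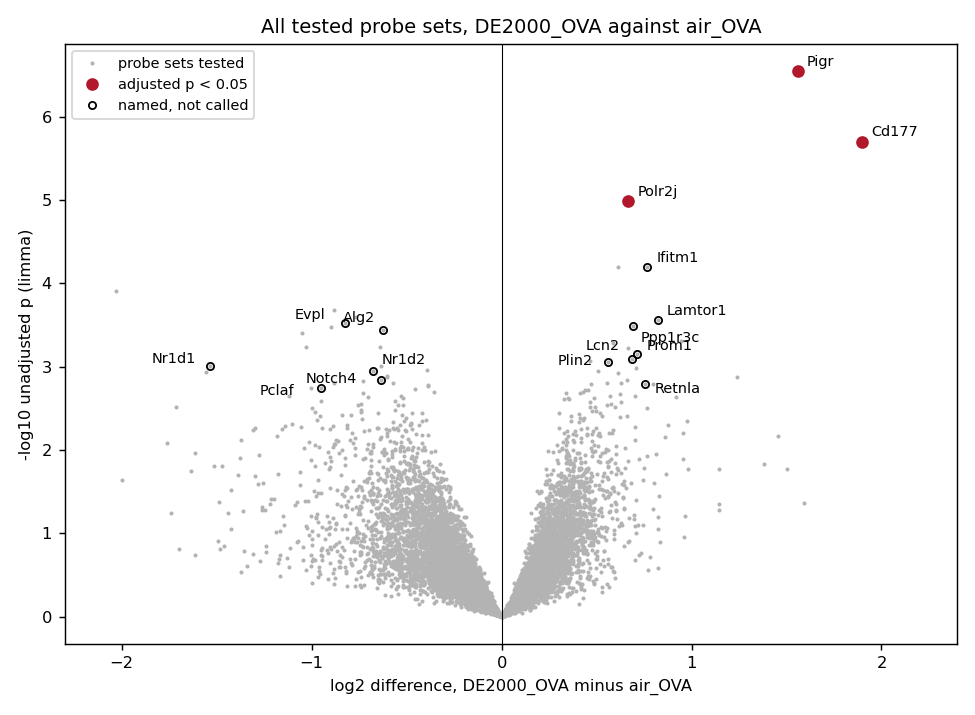
Each point is one of the 13575 tested probe sets, with the log2 difference of DE2000_OVA minus air_OVA on the horizontal axis and -log10 of the unadjusted limma p on the vertical axis. Red points are the 3 called probe sets, of Pigr, Cd177 and Polr2j, all on the right, and black circles are other genes named in the text.

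All 13 tested genes of secreted defence and acute phase proteins had log2 differences above 0, where 47.3% of all 8315 genes did, and the median was 0.36, against -0.02 over all genes. Pigr was the called member, and 4 members had an unadjusted p under 0.05, a share to be read beside 3.98% of all genes. Lcn2, a lipocalin that keeps iron from bacteria, read 1846, 1375, 2526 and 2098 in DE2000_OVA lungs, against 1099, 1217, 1068 and 1399.6 in air_OVA lungs (0.69 ± 0.18, adjusted p = 0.492, limma). Only replicate 2 of DE2000_OVA reached into the air_OVA range. Reg3g, a lectin that kills Gram-positive bacteria, read 531, 345, 588 and 787 in DE2000_OVA lungs, against 205, 166, 88.3 and 344 in air_OVA lungs. Its groups touched without overlapping, and the difference was 1.59 ± 0.75 (adjusted p = 0.612). Cp, the ferroxidase ceruloplasmin, read 3058, 2197, 2291 and 6571 in DE2000_OVA lungs, against 1937, 1871, 2018 and 2799.7 in air_OVA lungs. Replicate 4 had more than any other array, and the difference was 0.58 with it and 0.23 without it. Saa3, a serum amyloid A of inflamed tissue, read 207, 106, 303 and 1302 in DE2000_OVA lungs, against 236, 169, 229 and 225 in air_OVA lungs. For Saa3 the difference was 0.52 ± 0.48 with replicate 4 and -0.18 without it, so the sign rested on that array. Hp, haptoglobin, gave 0.26 ± 0.14 (0.03 after quantile normalization). Without replicate 4, 12 of the 13 genes lay above 0, beside 49% of all genes, and the median was 0.26.

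Neutrophil markers other than Cd177 showed no called difference. The summed signal of the 12 tested markers was 33647 to 43509 in DE2000_OVA lungs, against 27897 to 31525 in air_OVA lungs, without overlap, and replicate 4 set neither end of the DE2000_OVA range. Lyz2, lysozyme of myeloid and alveolar cells, made up most of this sum with 20198 to 29021 in DE2000_OVA lungs, against 15560.5 to 21784 in air_OVA lungs, and its difference of 0.32 ± 0.11 was -0.005 after quantile normalization. Of these 12 genes 8 had differences above 0 and Cd177 was the called one, with a list median of 0.17 (0.18 without replicate 4). Chil1, a chitinase-like protein, read 5684, 5056, 7416 and 5973 in DE2000_OVA lungs, against 4559.6, 4126, 4096 and 4453 in air_OVA lungs (0.47 ± 0.13). The groups were apart in Chil1. Other granule and calprotectin genes, named after their values were seen, gave S100a8 at -0.11, S100a9 at 0.15, Ngp at -0.25 and Mmp8 at -0.33. None of the eosinophil list's 10 markers was tested, since the 7 on the array lay under the signal limit.

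Markers of other immune cells were set beside these values. Alveolar macrophage markers had a median of 0.05 over 11 genes, with the surface protein Plet1 at 0.39 ± 0.13. Monocyte markers had a median of 0.01, where the lipopolysaccharide co-receptor Cd14 read 985, 1068, 1045 and 1211 in DE2000_OVA lungs, against 822, 896, 802 and 856 in air_OVA lungs (0.35 ± 0.13) and Ace, the angiotensin-converting enzyme that lung capillaries also make, gave -0.42 ± 0.13. The Cd14 groups did not overlap. The medians of 3 lymphoid lists had another sign without replicate 4. B cell markers had a median of -0.08 with it, 0.07 without it and 0.01 after quantile normalization. T cell markers had -0.05, 0.29 and 0.08 in the same order, and NK cell markers -0.17, 0.02 and -0.04. Plasma cell markers, which bear on the cargo of Pigr, had a median of -0.16 over 7 genes. Jchain, the joining chain of polymeric immunoglobulin, gave -0.32 ± 0.18, and Ighm, the heavy chain of immunoglobulin M, 0.71 ± 0.41, with overlapping groups in both. The part of cell numbers in the called differences was not tested.

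In the allergic type 2 list no gene was called. Retnla, a resistin-like protein of type 2 inflammation, read 2479, 2679, 2349.8 and 2209 in DE2000_OVA lungs, against 1444, 1320.3, 1483 and 1499.9 in air_OVA lungs (log2 difference 0.76 ± 0.21, adjusted p = 0.492, limma, and 0.80 without replicate 4). The groups did not overlap. Of the 11 tested genes 9 lay above 0, the median was 0.17 (0.18 without replicate 4), and Retnla was the one with an unadjusted p under 0.05. Chil3, a chitinase-like protein of macrophages, gave 0.25 ± 0.16, Chia1, the acidic chitinase, 0.28 ± 0.14, and Il13ra1, a chain of the interleukin 13 receptor, -0.44 ± 0.22. The cytokine Il13 had signals of 6.76 to 14.7 in DE2000_OVA lungs, against 11.5 to 14.4 in air_OVA lungs, Ccl11, the eosinophil-drawing chemokine, 5.44 to 74.0 in DE2000_OVA lungs, against 49.2 to 109 in air_OVA lungs, and the airway mucin Muc5ac at most 47.9 in DE2000_OVA lungs and 49.5 in air_OVA lungs. All 3 lay under the signal limit and were not tested. The 6 tested goblet cell genes had a median of 0.13, with the mucin Muc5b at 0.33 ± 0.26.

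No interferon gene passed the adjusted threshold. All 4 tested Ifitm genes lay above 0 (median 0.26, 0.20 without replicate 4). Ifitm2 read 7645, 8029.8, 7945 and 9284 in DE2000_OVA lungs, against 6055, 7119, 6543 and 6464 in air_OVA lungs (0.33 ± 0.10), with the groups apart, and Ifitm3 gave 0.20 ± 0.13. After quantile normalization Ifitm2 gave 0.16 and Ifitm3 -0.02. Of 28 interferon-induced genes 16 lay above 0, with a median of 0.10, and 2 had higher values at an unadjusted p under 0.05, beside 3.98% of all genes, Ifi47, an interferon-gamma-induced GTPase (0.43 ± 0.18), and the factor Irf1 (0.24 ± 0.11). Class II antigen presentation had 8 of 10 genes above 0 and a median of 0.14 (0.06 after quantile normalization). H2-Eb1, a class II beta chain, gave 0.32 ± 0.14 with the groups apart, and Cd74, the invariant chain, 0.25 ± 0.11. After quantile normalization H2-Eb1 gave 0.21 and Cd74 0.07. Chemokines had a median of 0.06, and NF-kB targets one of 0.03 that was -0.02 without replicate 4. The mucosal chemokine Cxcl17 gave 0.29 ± 0.11 and the adhesion molecule Icam1 0.37 ± 0.16 (0.20 without replicate 4).

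Targets of the aryl hydrocarbon receptor showed no called difference. Of the 7 tested genes 3 lay above 0, the median was -0.02 (0.06 after quantile normalization and 0.09 after median scaling), and none had an unadjusted p under 0.05. Cyp1a1, the P450 that oxidizes polycyclic hydrocarbons, read 304, 479.7, 199.5 and 326 in DE2000_OVA lungs, against 229, 271, 295 and 549 in air_OVA lungs. The groups overlapped throughout, and the difference of -0.02 ± 0.28 had the other sign after quantile normalization (0.06) and median scaling (0.09). Cyp1b1, a related P450, gave 0.26 ± 0.20, the receptor Ahr 0.25 ± 0.17, and Tiparp, an ADP-ribosyltransferase that dampens the receptor, -0.28 ± 0.17. Tiparp signals were 1023 to 1266 in DE2000_OVA lungs, against 1289.7 to 1561 in air_OVA lungs, so every exhaust-exposed value lay below every air value. The 26 P450 and other xenobiotic enzymes had a median of 0.07, with Cyp4b1 at 0.21 ± 0.10 (-0.0084 after quantile normalization) and the flavin monooxygenase Fmo1 at 0.18 ± 0.09 (0.05 after it).

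Genes of antioxidant defence had mostly positive differences, none of which passed the adjusted threshold. Of 24 NRF2 targets 19 lay above 0, beside 47.3% of all genes (median 0.17, and 0.17 without replicate 4), and 4 had higher values at an unadjusted p under 0.05, beside 3.98% of all genes, and none lower. After quantile normalization 16 of the 24 lay above 0, beside 4464 of all 8315 genes, and the median was 0.15. Of 36 glutathione and peroxide enzymes 29 lay above 0 (median 0.19, 0.16 without replicate 4), with 6 higher at an unadjusted p under 0.05, beside the same 3.98%. After quantile normalization 29 of the 36 lay above 0, with a median of 0.17. Txn1, thioredoxin, read 6689, 7761, 7825 and 7724 in DE2000_OVA lungs, against 5936, 5946, 5689.9 and 5939.5 in air_OVA lungs (0.35 ± 0.10, 0.19 after quantile normalization). Its groups did not overlap. Sod2, the mitochondrial superoxide dismutase, read 2424, 2988, 2996 and 3679 in DE2000_OVA lungs, against 2128, 2356, 1957 and 2089 in air_OVA lungs (0.49 ± 0.15, 0.42 after quantile normalization), also without overlap. A second tested Sod2 probe set gave 0.11 with overlapping groups. The aldo-keto reductase Akr1b8 gave 0.42 ± 0.16, with replicate 4 inside the air_OVA range and a difference of 0.56 without it. The glutathione transferases Gstp1 and Gstt1 gave 0.42 ± 0.16 and 0.48 ± 0.16, the carbonyl reductase Cbr3 0.39 ± 0.17, and Gpx2, an epithelial glutathione peroxidase, 0.72 ± 0.27 (0.46 without replicate 4). Gclc, the rate-limiting enzyme of glutathione synthesis, gave 0.12 ± 0.19. Hmox1, heme oxygenase, read 218, 181, 212 and 29.3 in DE2000_OVA lungs, against 285, 122, 246 and 323 in air_OVA lungs. One array, replicate 4 of DE2000_OVA, was far under the rest, and the difference of -0.87 became -0.17 without it. Nqo1, a quinone reductase and standard NRF2 target, had signals of 121 to 163 in DE2000_OVA lungs, against 133 to 161 in air_OVA lungs, and lay under the limit for testing.

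Of the 15 tested circadian clock genes 14 had log2 differences below 0, and the median was -0.35, against -0.02 over all genes (-0.43 without replicate 4, -0.34 after quantile normalization). No clock gene was called. Of them 6 had lower and 1, Csnk1d, had higher values at an unadjusted p under 0.05, to be read beside 4.11% and 3.98% of all genes. In 4 the DE2000_OVA values lay below without overlap, beside 2.06% of all genes, and of these Nr1d2, Per1 and Tef are described by array below. Nr1d1, the nuclear receptor REV-ERB alpha that represses clock genes, read 325, 237, 371 and 212 in DE2000_OVA lungs, against 1089, 287, 1592 and 865 in air_OVA lungs. Of the DE2000_OVA values 2 lay above air_OVA replicate 2, which was far below the other 3 air_OVA arrays. The log2 difference was -1.54 ± 0.41 (adjusted p = 0.492, limma), -1.40 without DE2000_OVA replicate 4, and -2.04 without air_OVA replicate 2, where it passed the threshold (adjusted p = 0.0384). Its partner Nr1d2 read 1774, 1954, 1285 and 1595 in DE2000_OVA lungs, against 2895, 2142, 3269.6 and 2304 in air_OVA lungs (-0.68 ± 0.18, -0.67 without replicate 4). The Nr1d2 groups were apart. Per1, a repressor in the core loop, read 621, 844, 699 and 727 in DE2000_OVA lungs, against 907, 1015, 1148 and 1059.7 in air_OVA lungs (-0.52 ± 0.16), and Tef, a bZIP factor of clock output, read 4078, 3476, 4114 and 3708 in DE2000_OVA lungs, against 4534, 4714, 5489 and 4913 in air_OVA lungs (-0.35 ± 0.10). Neither gene's groups overlapped. The other members are named after their values were seen. The related output factors Dbp and Hlf gave -0.78 and -0.45, the core repressors Per2, Per3, Cry1 and Cry2 -0.62, -0.33, -0.43 and -0.19, the activator Clock -0.33, the repressor Bhlhe40 -0.16 and the nuclear receptor Rora -0.07. The kinase genes gave -0.20 for Csnk1e and 0.37 for Csnk1d, the one member above 0. The labels used here do not give the time of day at which lungs were collected.

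Starts of clock genes were searched for the E-box, through which the CLOCK and BMAL1 proteins drive this loop. The RefSeq table (GRCm38.p6) matched 12 of the 15 tested clock genes, with 19 windows. CACGTG was found in 4 windows of 3 genes, beside 7.15% of all windows, and the D-box TTATGTAA, searched on both strands and held by 0.938% of all windows, in 1. The 3 windows of Per1 and Tef that hold the E-box are printed, because they show it in clock genes whose groups were apart in value. The second Per1 window and the window of Nr1d2, whose groups were apart too, held none and are not printed. Capitals mark CACGTG.
Per1 (chr11:69098699-69098998, plus strand): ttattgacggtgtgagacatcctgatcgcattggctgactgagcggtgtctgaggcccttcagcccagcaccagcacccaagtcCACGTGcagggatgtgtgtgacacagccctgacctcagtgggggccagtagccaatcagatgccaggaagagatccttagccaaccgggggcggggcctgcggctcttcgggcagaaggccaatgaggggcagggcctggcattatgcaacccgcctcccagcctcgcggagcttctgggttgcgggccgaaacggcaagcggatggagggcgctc
Tef (chr15:81802423-81802722, plus strand): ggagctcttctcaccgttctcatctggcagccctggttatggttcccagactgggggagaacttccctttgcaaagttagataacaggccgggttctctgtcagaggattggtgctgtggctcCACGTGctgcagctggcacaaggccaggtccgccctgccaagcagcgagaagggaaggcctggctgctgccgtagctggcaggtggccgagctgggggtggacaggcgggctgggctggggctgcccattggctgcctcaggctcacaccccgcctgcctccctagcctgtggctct
Tef (chr15:81811164-81811463, plus strand): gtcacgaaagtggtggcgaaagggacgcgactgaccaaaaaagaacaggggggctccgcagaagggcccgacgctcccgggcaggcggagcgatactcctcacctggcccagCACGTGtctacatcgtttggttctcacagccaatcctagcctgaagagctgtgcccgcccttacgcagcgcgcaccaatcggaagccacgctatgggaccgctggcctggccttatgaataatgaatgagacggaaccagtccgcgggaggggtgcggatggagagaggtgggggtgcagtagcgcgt
The E-box begins at base 85 in Per1 and at bases 124 and 113 in the 2 Tef windows. The other gene with it was Cry1, and the windows of Nr1d1 and Dbp held none. Further motifs were searched in the same windows and are not described here.

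**Figure D3:**
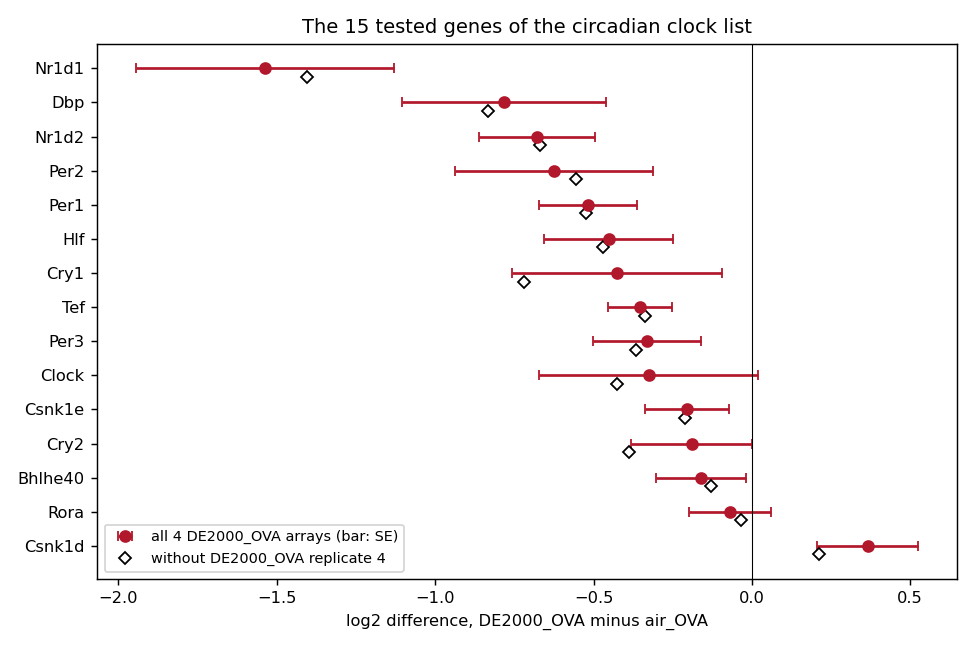
Log2 difference of DE2000_OVA minus air_OVA (horizontal axis) for the 15 tested clock genes, sorted by value. Red points with bars are differences ± SE with all 4 DE2000_OVA arrays, and open diamonds are the same without replicate 4. All but Csnk1d lie left of 0 in both.

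Other genes tied to hormone or rapid signalling had list medians nearer to 0 than the clock with all 4 DE2000_OVA arrays. Of 25 glucocorticoid-responsive genes 9 lay above 0, beside 47.3% of all genes. Without replicate 4 this count was 4, beside 49% of all genes, and after quantile normalization it was 7. The median of -0.07 was -0.33 without replicate 4, -0.23 after quantile normalization and 0.04 after median scaling. Ddit4, an inhibitor of the growth kinase mTORC1, read 153, 465, 202 and 1461 in DE2000_OVA lungs, against 820.3, 986, 1096 and 572 in air_OVA lungs. Replicate 4 was the highest array of either group and the other 3 lay below all air_OVA arrays, so that the difference was -1.15 ± 0.63 with it and -1.79 without it. The glucocorticoid-induced kinase Sgk1 gave -0.26 ± 0.15. Immediate early genes had 5 of 19 above 0 and a median of -0.14 (-0.26 without replicate 4). Fos, a subunit of the AP-1 factor, read 971, 885, 676 and 825 in DE2000_OVA lungs, against 1436, 1224, 1064 and 1966 in air_OVA lungs (-0.73 ± 0.23), without overlap, and Btg2, an antiproliferative factor, gave -0.40 ± 0.21.

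Of 16 p53 and DNA damage targets 5 lay above 0, the median was -0.21 (-0.24 without replicate 4), and 4 had an unadjusted p under 0.05, all lower, beside 4.11% of all genes. Without replicate 4, 1 of these 4, Sesn1, was still under 0.05 unadjusted. They were Polk, a polymerase that copies past damaged bases (-0.32 ± 0.13), the stress-response sestrins Sesn1 (-0.37 ± 0.17) and Sesn2 (-0.50 ± 0.22), and Mdm2, the ubiquitin ligase of p53, which read 667, 430.2, 407 and 423 in DE2000_OVA lungs, against 830.1, 547, 806 and 676 in air_OVA lungs (-0.58 ± 0.27). In Mdm2, replicate 1 of DE2000_OVA lay among the air_OVA arrays and the other 3 lay below them. Cell cycle genes did not share a direction, with a median of 0.12 over 15 genes. The ribonucleotide reductase subunit Rrm1 gave 0.44 ± 0.18, the mitotic activator Cdc20 0.58 ± 0.25 and the chromatin protein Hmgb2 -0.96 ± 0.34 (-0.66 without replicate 4). Unfolded protein and integrated stress genes had a median of -0.03 (0.08 after median scaling), and Nupr1, a chromatin protein made under stress, gave 0.47 ± 0.12. Heat shock genes had a median of 0.07, with the small heat shock protein Hspb1 at 0.46 ± 0.20 and the co-chaperone Dnajb1 at 0.49 ± 0.22.

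Alveolar and club cell markers had positive medians that depended on the scaling. Alveolar type 1 and type 2 markers had medians of 0.16 and 0.15 over 11 and 19 genes, which were -0.01 and -0.04 after quantile normalization. Sftpa1, surfactant protein A, read 24325, 27543, 30084 and 24875 in DE2000_OVA lungs, against 19656, 21599.7, 23588 and 22362 in air_OVA lungs (0.29 ± 0.10, -0.02 after quantile normalization). The Sftpa1 groups were apart on the deposited scale. Sftpc gave 0.36 ± 0.15 (-0.01 after quantile normalization) and Emp2, a membrane protein of type 1 cells, 0.25 ± 0.12 (-0.0039 after it). Club cell markers had a median of 0.21 (0.03 after quantile normalization), with the retinal dehydrogenase Aldh1a1 at 0.30 ± 0.12 and Scgb1a1 at 0.33 ± 0.16. Ciliated cell markers had a median of 0.07 over 8 genes (0.08 after quantile normalization).

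No smooth muscle or matrix gene was called. Acta2, the smooth muscle actin, read 7603, 8008, 8319 and 10026 in DE2000_OVA lungs, against 4816, 5885, 5115 and 6106 in air_OVA lungs (log2 difference 0.63 ± 0.18, adjusted p = 0.492, limma). Its groups were apart, and so were those of Tagln, an actin-binding protein of smooth muscle, with signals of 3241 to 4296 in DE2000_OVA lungs, against 2219.9 to 3170.1 in air_OVA lungs (0.48 ± 0.15). The 10 smooth muscle genes together had a median of 0.03. Fibroblast markers had 10 of 22 genes above 0 and a median of -0.10 (0.0051 after median scaling), and extracellular matrix genes 14 of 47 above 0 and a median of -0.16 (-0.18 without replicate 4). Col1a1, the main chain of collagen I, read 818, 260.5, 731 and 476 in DE2000_OVA lungs, against 1180.3, 805, 1375 and 1058 in air_OVA lungs (-1.05 ± 0.34). Replicate 1 of DE2000_OVA just overlapped the air_OVA arrays, and a second, dimmer Col1a1 probe set gave 0.28 (-0.07 without replicate 4). Npnt, the matrix protein nephronectin, gave -0.47 ± 0.20 and the laminin chain Lamc1 -0.55 ± 0.23, while Col6a2, a collagen VI chain, gave 0.35 ± 0.14. Endothelial markers had a median of -0.05 over 22 genes, which was 0.06 after median scaling. Cardiac muscle and fat lists, for tissue that can come with lung, had medians of 0.10 and 0.08, or -0.04 and -0.10 without replicate 4.

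Genes of energy metabolism and translation had small positive differences. Of 36 ribosomal protein genes 33 lay above 0 and 10 had an unadjusted p under 0.05, all higher, beside 47.3% and 3.98% of all genes, with a median of 0.25 (0.22 without replicate 4, 0.06 after quantile normalization). Rpl19 of the large subunit gave 0.30 ± 0.09 and Rps26 of the small one 0.34 ± 0.11, with 0.08 and 0.16 after quantile normalization. Of 65 oxidative phosphorylation genes 57 lay above 0, with a median of 0.17 (0.14 after quantile normalization). Uqcrb of complex III read 14049, 16214, 17799 and 19764 in DE2000_OVA lungs, against 11723, 13378, 11881 and 12797 in air_OVA lungs (0.44 ± 0.12), without overlap, and Sdhb of complex II gave 0.39 ± 0.13. A second Uqcrb probe set gave 0.01 with overlapping groups. Glycolysis had 13 of 15 genes above 0 and a median of 0.18. The glucose transporter Slc2a1 read 220.0, 386, 337 and 523 in DE2000_OVA lungs, against 190.2, 229.6, 181 and 176 in air_OVA lungs (0.86 ± 0.29). Replicate 1 of DE2000_OVA lay within the air_OVA range. Ldha and Aldoa, of lactate formation and sugar splitting, gave 0.51 ± 0.18 and 0.36 ± 0.13, and the lactate exporter Slc16a3 gave -0.65 ± 0.27 (-0.33 without replicate 4). The tricarboxylic acid cycle had a median of 0.06, with Idh3g, a subunit of isocitrate dehydrogenase, at 0.48 ± 0.17. Fatty acid oxidation had a median of 0.08, with the mitochondrial dehydrogenase Hadh at 0.45 ± 0.20 (0.25 without replicate 4) and the peroxisomal thiolase Acaa1a, whose groups were apart, at -0.57 ± 0.20.

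RNA polymerase II subunits, the list that holds Polr2j, had 8 of 10 genes above 0 and a median of 0.18 (0.12 without replicate 4). Beside the called Polr2j, the subunits Polr2i and Polr2g gave 0.37 ± 0.15 and 0.29 ± 0.13. Proteasome genes had 23 of 30 above 0, a median of 0.11 and none with an unadjusted p under 0.05. Splicing and nuclear RNA-binding proteins had 8 of 35 above 0, a median of -0.15 (-0.11 without replicate 4) and 7 genes with lower and 1 with higher values at an unadjusted p under 0.05, beside 4.11% and 3.98% of all genes. Srrm1, a splicing coactivator, gave -0.42 ± 0.15, the RNA-binding protein Hnrnph1 -0.39 ± 0.14 and Clk4, a kinase of splicing factors, -0.51 ± 0.20, while Hnrnpc gave 0.35 ± 0.13. Malat1, a long RNA of nuclear speckles named after its values were seen, read 1927, 4786, 2674 and 3168 in DE2000_OVA lungs, against 3922, 4531, 9072 and 3267 in air_OVA lungs (-0.69 ± 0.26). Its groups overlapped. The B1 signal of the same arrays, given above, lay below all air_OVA arrays in DE2000_OVA replicates 1 to 3 and above them in replicate 4, and its part was not tested. Scaling the arrays to a common median moved the median of all 8315 genes to 0.09, a shift of 0.11 to be set against every list median here. The complement, metallothionein and sterol lists had medians of -0.02, 0.05 and -0.02, each of which changed sign without replicate 4 or under another scaling.

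Probe sets of one gene did not always share a direction. Of the named genes 42 had further tested probe sets, 69 in all, and 18 of these, from 15 genes, had the other sign from the value given above. For Cp they gave -0.43 and -0.05, for Slc2a1 -0.12, for Rrm1 -0.37, for Idh3g -0.17, for Hnrnpc -0.08 and for Emp2 -0.82. For Plet1 the further probe set gave -0.19, for Ahr -0.03 and for Tiparp 0.18. For Ighm 3 gave -0.14, -0.04 and -0.05. The others belonged to Notch4, Agfg1 and Col1a1, described above, and to Pgap2 (0.57) and Ddx10 (0.21), which are named for the interaction. The same sign was shared by 51 further probe sets, of which some lay near 0 and others farther out. Near 0 were those of Hadh (0.05), Dnajb1 (0.09), Cdc20 (0.02), Col6a2 (0.02) and 1 of Npnt (-0.08). Farther out were those of Lamc1 (-1.76) and Tef (-1.12 and -1.01).

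**Figure D4:**
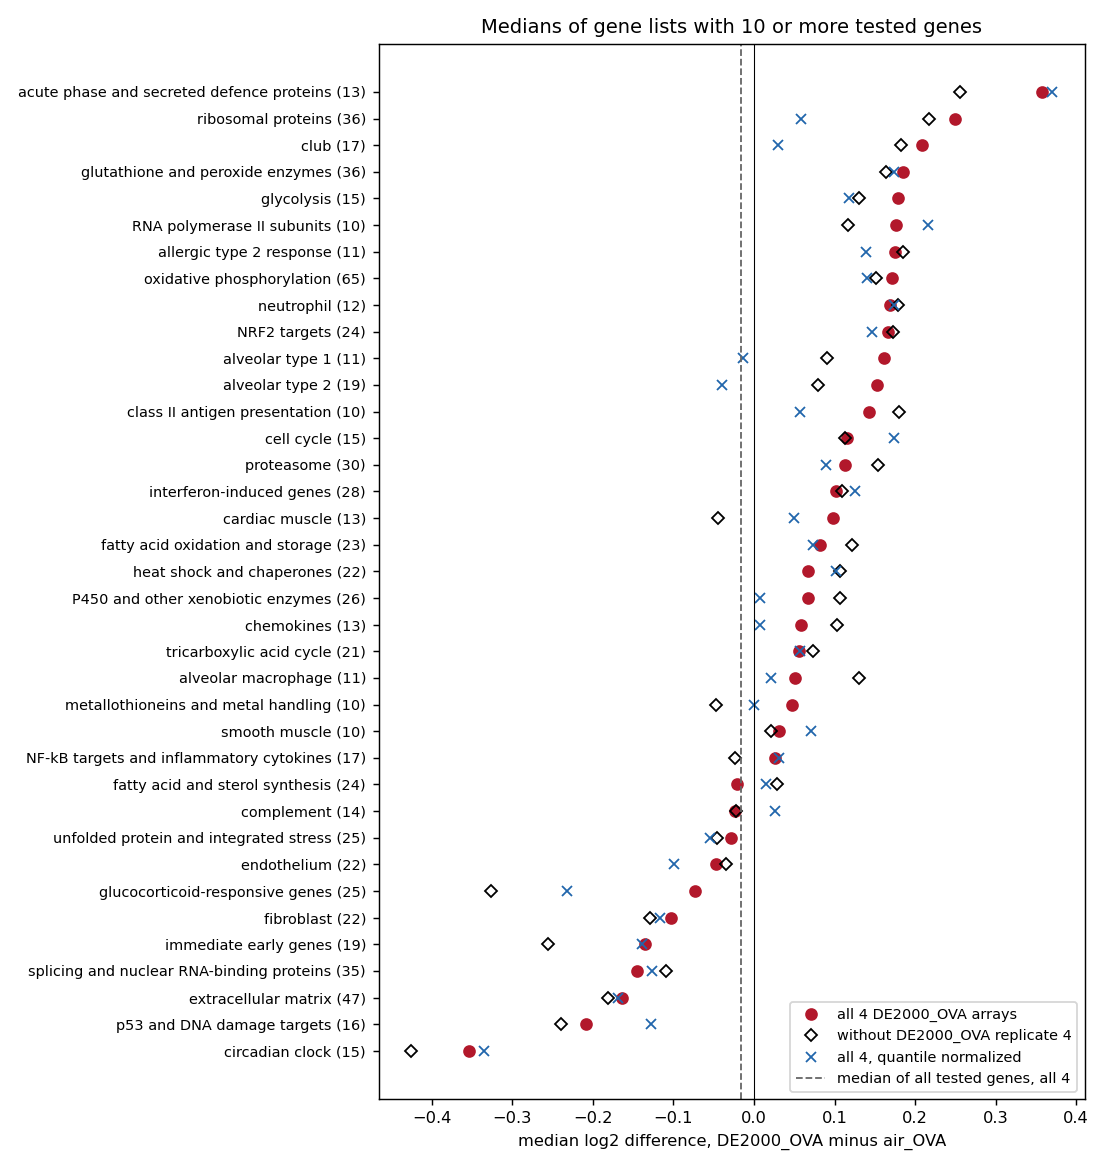
Median log2 difference of DE2000_OVA minus air_OVA (horizontal axis) for each list with 10 or more tested genes, the number tested in parentheses. Red points use all 4 DE2000_OVA arrays, open diamonds leave out replicate 4, blue crosses are quantile normalized, and the dashed line is the median of all tested genes, -0.02. Secreted defence proteins lie farthest right at 0.36 and the clock farthest left at -0.35, while the ribosomal, club and alveolar lists move toward 0 under quantile normalization.

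The lower exhaust dose gave no called probe set. In DE500_OVA against air_OVA, which shares the air_OVA arrays with the comparison above, 0 of 13575 probe sets passed in limma, and 66 (0.486%) had higher and 59 (0.435%) lower values at an unadjusted p under 0.05. Pigr read 540.1, 538, 499.8 and 758 in air_OVA lungs, 715, 725, 443 and 557 in DE500_OVA lungs and 1419, 1358, 1599.8 and 2702 in DE2000_OVA lungs. The DE500_OVA values overlapped those of air_OVA, and the DE2000_OVA values lay above both groups. Cd177 read 146, 88.4, 89.1 and 127 in air_OVA lungs, 108, 159, 88.5 and 144 in DE500_OVA lungs and 465, 217, 391 and 716 in DE2000_OVA lungs. For DE2000_OVA minus DE500_OVA, which shares the DE2000_OVA arrays, Pigr rose by 1.51 (adjusted p = 0.00673, limma) and Cd177 by 1.75 (adjusted p = 0.043), and these were the 2 probe sets called (0.0147%). Polr2j gave 0.23 at 500 ug/m3 and 0.67 at 2000 ug/m3, each minus air_OVA, and 0.44 between the doses, which did not pass (adjusted p = 0.424). Against the same air_OVA arrays, the 10 higher genes named by rule gave -0.02 (Prom1) to 0.71 (Fbxl6) at 500 ug/m3, and the 10 lower genes -0.25 (Crb1) to 0.14 (Notch4). Fbxl6 gave 0.71 at both doses. Set side by side for 500 and 2000 ug/m3, Lcn2 gave -0.06 and 0.69, Retnla -0.12 and 0.76, Ifitm1 0.08 and 0.77, Nr1d1 -0.40 and -1.54, and Fos -0.41 and -0.73. The list medians were -0.05 and 0.36 for secreted defence proteins and -0.15 and -0.35 for the clock.

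Whether ovalbumin altered the response to 2000 ug/m3 exhaust was asked by the interaction, the difference in ovalbumin mice minus that in saline mice, which have air_saline arrays of their own. No probe set of 13575 passed in limma, and 235 (1.73%) had higher and 594 (4.38%) lower interactions at an unadjusted p under 0.05, against 450 and 356 after median scaling. Without air_saline replicate 4, 64 were called, 63 of them lower, and with the B1 covariate 181. In saline mice 20 probe sets were called (0.147%), all higher in DE2000_saline, with Pigr and Cd177 among them. There the signal of Pigr was 2909.9, 3419, 2952 and 2487 in DE2000_saline lungs, against 1168, 1034, 1208 and 960.4 in air_saline lungs (1.43 ± 0.22, adjusted p = 0.00394), with an interaction of 0.13 ± 0.31 (adjusted p = 0.989). The air_saline level of Pigr was itself above that of air_OVA on every array. Cd177 gave 2.39 ± 0.30 in saline mice (adjusted p = 0.000683) and an interaction of -0.49 ± 0.43. Polr2j gave 0.22 ± 0.12 there (adjusted p = 0.928) and an interaction of 0.44 ± 0.17 (adjusted p = 0.669). An interaction that misses the threshold does not show that the 2 responses were alike.

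Saa3 was not called in ovalbumin mice (0.52 ± 0.48) and was called in saline mice, where it read 1111, 1490.0, 956 and 1066 in DE2000_saline lungs, against 186, 180.2, 232 and 111 in air_saline lungs (2.73 ± 0.48, adjusted p = 0.018, limma). The interaction was -2.21 ± 0.68 (adjusted p = 0.483) and did not pass. In ovalbumin and saline mice the secreted defence list had medians of 0.36 and 0.37, and the clock list -0.35 and -0.13, with these differences not tested. The 5 genes with the smallest interaction p were all negative. Tbx4, a transcription factor of lung mesenchyme, read 633, 685, 506 and 382 in DE2000_OVA lungs, against 765, 652, 827 and 760.2 in air_OVA lungs, and 1081, 927, 943 and 820.1 in DE2000_saline lungs, against 516, 560.1, 476 and 648 in air_saline lungs. Every air_OVA array lay above every air_saline array as well. Its interaction was -1.26 ± 0.22 (adjusted p = 0.0852), which did not pass. Wdfy3, an adaptor of autophagy, gave -1.52 ± 0.34, Pgap2, which remodels lipid anchors of proteins, -1.33 ± 0.31, the RNA helicase Ddx10 -0.98 ± 0.23 and the zinc finger gene Zfp109 -0.99 ± 0.25. In ovalbumin mice alone Wdfy3, Pgap2, Ddx10 and Zfp109 gave -0.65, -0.18, -0.37 and -0.44, and in saline mice 0.87, 1.15, 0.62 and 0.56. The saline arrays had mean log2 3'/5' control ratios of 1.30 to 2.04 in DE2000_saline and 0.98 to 2.90 in air_saline lungs, and log2 B1 signals of 12.95 to 13.31 in DE2000_saline and 12.49 to 13.35 in air_saline lungs. In DE500_saline lungs, which add only to the signal filter and the estimate of spread, the ratios were 0.10 to 4.38 and the B1 signals 12.08 to 13.825. The part of these measures in the interaction was not tested.

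**Figure D5:**
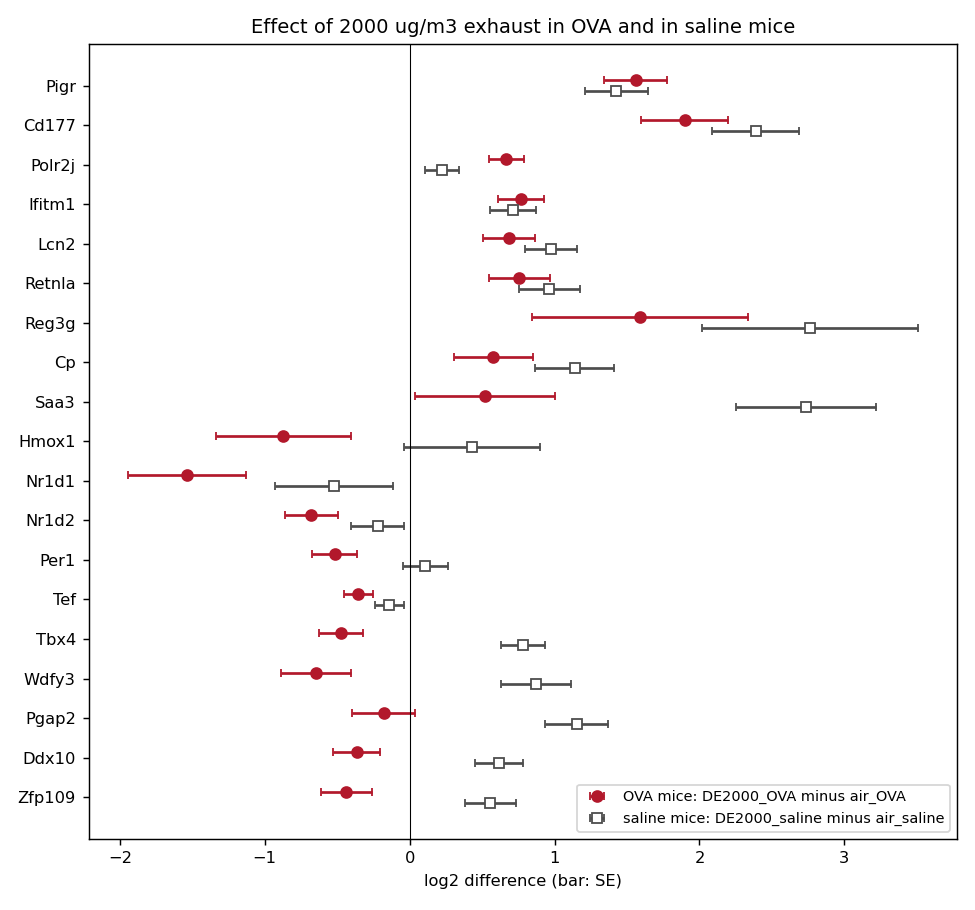
Log2 difference ± SE (horizontal axis) for 2000 ug/m3 exhaust against air in ovalbumin mice (red circles) and in saline mice (open squares), for 19 named genes. Pigr, Cd177, Ifitm1, Lcn2 and Retnla lie right of 0 in both, and Tbx4, Wdfy3, Pgap2, Ddx10 and Zfp109 lie on opposite sides of 0, with no interaction called.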

How the data were processed

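Lung RNA was measured on 24 Affymetrix arrays of 22690 probe sets. The deposited values are linear signal intensities, 1 per probe set and array, made by the authors with MAS5, per the submitters' processing notes. Its version was not given in the sources used here. Trimmed means (2% off each end) of 499.96 to 500.18 showed each array scaled to a common target of that size. MAS5 corrects each array by itself, so a change of the signal distribution stays in the values, and quantile normalization was tried beside it. Depth does not apply to arrays, and the number of arrays limits the precision.

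After 64 control probe sets were set aside, 22626 were kept, of which 20380 named 1 gene, 691 several and 1555 none by the platform annotation, with symbols updated through RefSeq. Log2 signals were tested without a pseudocount. Probe sets above the 40th percentile of mean log2 signal over all arrays (a geometric mean signal of 138) were tested, 13575 in all, of which 12488 named 1 of 8315 genes. A gene was represented by its tested probe set with the highest mean signal that names it alone. A linear model over 6 groups (limma 3.58.1 in R 4.3.3, lmFit, contrasts and eBayes, Benjamini-Hochberg adjustment over the 13575) gave DE2000_OVA minus air_OVA, the dose and saline differences and the interaction. Single values were compared by exact permutation tests, which for 4 against 4 arrays can give no p below 0.0286. Tables and figures used Python 3.11.15, pandas 2.3.3, scipy 1.17.1 and matplotlib 3.10.9.

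Named genes were the called genes, the 10 higher and 10 lower genes with the smallest p among those without overlap of the groups, up to 4 members a described list by smallest p, a set of genes of the exhaust and allergy responses whatever their values, and the 5 with the smallest interaction p. Genes outside this rule are marked in the text. The members and the gene lists were chosen with earlier results of these data known. Promoter windows came from a RefSeq table (GRCm38.p6), matched by symbol.

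Replicate numbers were checked for pairing through the correlation of deviations from group means between DE2000_OVA and air_OVA arrays of one number, which were 0.16, -0.06, 0.10 and -0.01 for replicates 1 to 4. They were not taken as pairs. On simulated data for DE2000_OVA minus air_OVA (13575 probe sets), the same fit recovered 26%, 82%, 94% and 94% of probe sets changed 1.5-, 2-, 3- and 4-fold, with 8 false calls among 13375 unchanged. Each fold was given to 50 probe sets, and the noise was normal and independent between probe sets. The simulation held no outlying array and no shift shared between probe sets. Its shares therefore do not tell what share of real changes of these sizes was called. Alternatives were quantile and median scaling, other filters, a pseudocount, fewer groups in the fit, array weights, the 3'/5' ratio or the B1 signal as covariate, the replicate block and each array left out.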

Additional observations from a re-analysis of the deposited data

Results flagged for a closer look

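In 16 of 228 groups of 4 arrays examined, the gap between 1 array and the nearest other, set against the group's whole range, passed Dixon's critical value, which chance does in about 1 group in 20. DE2000_OVA replicate 4 was that array 6 times. This array had been set apart by its 3'/5' control ratio beforehand, and the flags for Gapdh, actin and their mean are not independent. Its log2 3'/5' control ratio was 2.09 for Gapdh (the other 3 arrays at -0.49 to -0.21), 1.95 for actin (0.23 to 0.44) and 2.02 for their mean (-0.13 to 0.09), and its log2 B1 signal was 12.43 (10.85 to 11.06). The same array had a low log2 signal of Hmox1 at 4.87 (7.504 to 7.77) and a high one of Gstp1 at 12.86 (12.41 to 12.47). In other DE2000_OVA arrays, Txn1 was low in replicate 1 at 12.71 (12.92 to 12.93), Mdm2 was high in replicate 1 at 9.38 (8.67 to 8.75), and Jchain was low in replicate 3 at 8.80 (9.38 to 9.47). Among air_OVA arrays, replicate 3 stood apart in Agfg1 at 10.08 (9.66 to 9.70), Wdfy3 at 9.64 (8.79 to 8.92), Ighm at 10.61 (9.57 to 9.66) and Txn1 at 12.47 (12.54 in the other 3). Saa3 was low in air_OVA replicate 2 at 7.40 (7.81 to 7.88), Gclc was low in air_OVA replicate 4 at 9.77 (10.25 to 10.35), and Ahr was high in air_OVA replicate 1 at 11.26 (10.59 to 10.68).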

How the results depend on the processing

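For DE2000_OVA minus air_OVA, against 3 calls, there were 2 or 3 under quantile normalization, median scaling, no filter, a stricter filter, a pseudocount and array weights, and 4 with the 3'/5' ratio as covariate. There were 0 in fits of only the 8 arrays compared (454 higher and 481 lower at an unadjusted p under 0.05) and of the 12 ovalbumin arrays (591 and 676), and 974 with the B1 covariate. Leaving out 1 array gave 1 to 7 calls, with 7 (4 higher) without DE2000_OVA replicate 1 and 1 without DE2000_OVA replicate 3 or air_OVA replicate 3. With the replicate block there were 3 calls and 0 for the interaction. Chosen after seeing the data, fits of the 8 arrays and of quantile-normalized values, both without DE2000_OVA replicate 4, gave 2 each. For the interaction, 0 in most alternatives, array weights and the 3'/5' covariate gave 1 each, the B1 covariate 181, and leaving out 1 array 0 to 64, with 2 without DE2000_OVA replicate 2 and 64 without air_saline replicate 4. The 3'/5' difference of 0.43 was -0.0749 to 0.643 with 1 array left out, below 0 without DE2000_OVA replicate 4. Pigr was lost in both smaller fits (adjusted p = 0.334 and 0.114, limma), and Cd177 also without DE2000_OVA replicate 3 (0.0585), DE2000_OVA replicate 4 (0.0632), air_OVA replicate 2 (0.056) or air_OVA replicate 3 (0.111). Polr2j passed in 8 of 21 alternatives. It was lost in both smaller fits (0.705 and 0.462), under median scaling (0.0722), no filter (0.0569) and array weights (0.119), and without DE2000_OVA replicate 2, 3 or 4 or air_OVA replicate 1, 2 or 3 (0.104 to 0.356). Of 2293 values of 110 named genes, most of them named for a small p in the main fit, 17 changed sign. Saa3 ranged over -0.1768 to 1.03 with 1 array left out, and was -0.1768 in the 8-array fit and -0.1429 after quantile normalization without DE2000_OVA replicate 4. Cyp1a1 was 0.0577 after quantile normalization, 0.0862 after median scaling, 0.0591 with the 3'/5' covariate and -0.2288 to 0.2422 with 1 array left out, and Gclc -0.0152 to 0.2492. After quantile normalization Lyz2 was -0.005, Sftpa1 -0.022, Sftpc -0.0121, Emp2 -0.0039, Ifitm3 -0.0205 and Cyp4b1 -0.0084, and without DE2000_OVA replicate 4 Emp2 was -0.0243 and Ifitm3 -0.0291. Of 1092 list medians, 73 moved by more than the spread of arrays. The causes were not tested.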
